A study of Homo sapiens with 23 samples.

Results

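The genes described here encode the initiation and elongation factors of protein synthesis, with the enzymes and binding partners that carry the same name. They were taken from the count table by symbol (EIF or EEF), leaving out the EIF2AK kinases, pseudogenes, antisense or divergent transcripts and Y-linked genes, and each had at least 10 counts in every library. Of 76 symbols with these letters 59 were kept, among 28395 genes in the table, and all 59 were among the 16468 genes tested. Of the 17 left out, 6 failed only the count rule. EEF1AKMT1, at 13 counts in its lowest library, and EEF1AKMT3, at 16, stood just inside it, and EEF1A2, EIF5A2 and EIF4EBP3, each at 0 counts in some library, fell outside.

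RNA was sequenced from 4 human multiple myeloma lines (malignant plasma cells grown in culture), H929, MM1S, OPM2 and RPMI-8226. The labels of the deposited per-library values name Cas9 in all 8 groups. Each line carried a guide RNA against IRF4, a transcription factor that plasma cells depend on, or a guide called EV in the labels, a name the sources used here do not explain. Doxycycline was given for 48 hours to every group, EV included, to switch the guide on. The 8 groups held 3 libraries each, apart from MM1S with EV, which held 2 (replicates 2 and 3), 23 in all. With 1 guide and 1 time, direct effects of IRF4 loss, later effects and off-target effects cannot be told apart. Nothing in the labels ties replicates to separate cultures, and every p-value here reflects only sample-to-sample spread that may be technical.

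The libraries held 6907390 to 28486960 counts each, of which the 2 MM1S EV libraries had 9366370 and 8662035. IRF4 fell on average over the lines by 1.18 ± 0.09 (adjusted p = 4.19e-09), with log2 fold changes of -1.58 (H929), -1.37 (MM1S), -0.66 (OPM2) and -1.10 (RPMI-8226). In OPM2 the guides overlapped for IRF4, at 1330.8 CPM (counts scaled to a common library size) in IRF4 replicate 2 and 1318.6 in EV replicate 3. In the other lines they did not. MYC, a transcription factor known to drive ribosome and translation genes, fell in H929 (-1.24 ± 0.10), OPM2 (-0.99 ± 0.10) and RPMI-8226 (-0.94 ± 0.10) but rose in MM1S (0.42 ± 0.11, adjusted p = 0.00418). The 7 plasma cell markers were above 0 in every library, with sums of 1430 to 8150 CPM with EV and 1020 to 5270 with the IRF4 guide. The sum of 4 T and NK cell markers was 0 to 15.6 CPM with EV and 1.41 to 126 with the IRF4 guide, nearly all CD3E (up to 119 CPM), while CD3D was at 0 in 19 of 23 libraries. Its part in the results was not tested. Sums were at most 2.01 CPM for 3 myeloid and 3.27 CPM for 3 erythroid markers. The 4 stromal and epithelial markers reached 237 CPM with EV and 194 with the IRF4 guide. Of these EPCAM reached 124 CPM, KRT18 119 and COL1A1 4.06, with COL1A2 at 0 in all 23 libraries.

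Translation of most mRNAs begins when eIF4E binds the cap and the scaffold eIF4G brings in the helicase eIF4A. The small ribosomal subunit, carrying eIF3 and the eIF2 complex with the initiator tRNA, then scans to the start codon, where eIF1, eIF1A and eIF5 set the choice. Elongation is carried by eEF1A, which delivers aminoacyl-tRNA, its exchange factor eEF1B, and eEF2, which moves the ribosome along. Messages for elongation factors, ribosomal proteins and some eIF3 subunits begin with a run of pyrimidines (terminal oligopyrimidine, or TOP, mRNAs), through which mTORC1 controls their translation. Plasma cells make large amounts of secreted protein and so rely on this machinery.

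Most of the 59 genes were lower with the IRF4 guide. On average over the lines 37 (62.7%) were called lower, against 25.1% of all genes tested (edgeR quasi-likelihood test, adjusted p under 0.05). Another 12 (20.3%) were called higher, against 32.6% of all genes. The median log2 fold change of the 59 was -0.23, beside 0.11 over all genes tested. In H929 40 were lower (67.8%, beside 26.1% of all genes) and 6 higher (10.2%, beside 32.9%), with a median of -0.40. OPM2 had 32 lower (54.2%, beside 20.2%) and 10 higher (16.9%, beside 23.3%), median -0.21. RPMI-8226 had 28 lower (47.5%, beside 14.7%) and 3 higher (5.08%, beside 19.2%), median -0.19. MM1S stood differently, with 14 lower (23.7%, beside 15.2%) and 16 higher (27.1%, beside 19.4%) around a median of 0.00. The medians over all genes were 0.10, 0.03, 0.04 and 0.07 in that order of lines. Removing 1 library moved 4 of these counts by over 1.5 times. The H929 higher count was 3 without H929 IRF4 replicate 3, the OPM2 higher count 6 without OPM2 IRF4 replicate 1, the RPMI-8226 higher count 1 without RPMI-8226 IRF4 replicate 3, and the MM1S lower count 7 without MM1S EV replicate 2.

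The change differed between lines for 44 of the 59 genes (74.6%, F test with 3 degrees of freedom), where 48% of all genes did. In 12 genes (20.3%, beside 3.83% of all genes tested) the fall was called in all 4 lines: EIF2S1, EIF2S2, EIF2B3, EIF1AX, EIF1AD, EIF5, EIF5B, EIF4E, EIF4G1, EIF4A3, EIF3J and EEF1E1. Without MM1S EV replicate 2 this count was 6 (10.2%, beside 2.65% of all genes), EIF2S1, EIF2B3, EIF1AX, EIF5B, EIF4A3 and EEF1E1. None of the 59 was called higher in all 4 lines, which 5.14% of all genes were. Calls in opposite directions were found for 8 genes (13.6%, beside 8.07% of all genes): EIF3D, EIF3E, EIF3G, EIF3K, EIF4B, EIF4E3, EEF1B2 and EEF2KMT. Without MM1S EV replicate 2 it was 5 (8.47%, beside 6.27% of all genes), EIF3E, EIF4B, EIF4E3, EEF1B2 and EEF2KMT. Only EIF4E2, EEF1AKMT1 and EEF1AKNMT were called in no line.

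**Figure D1:**
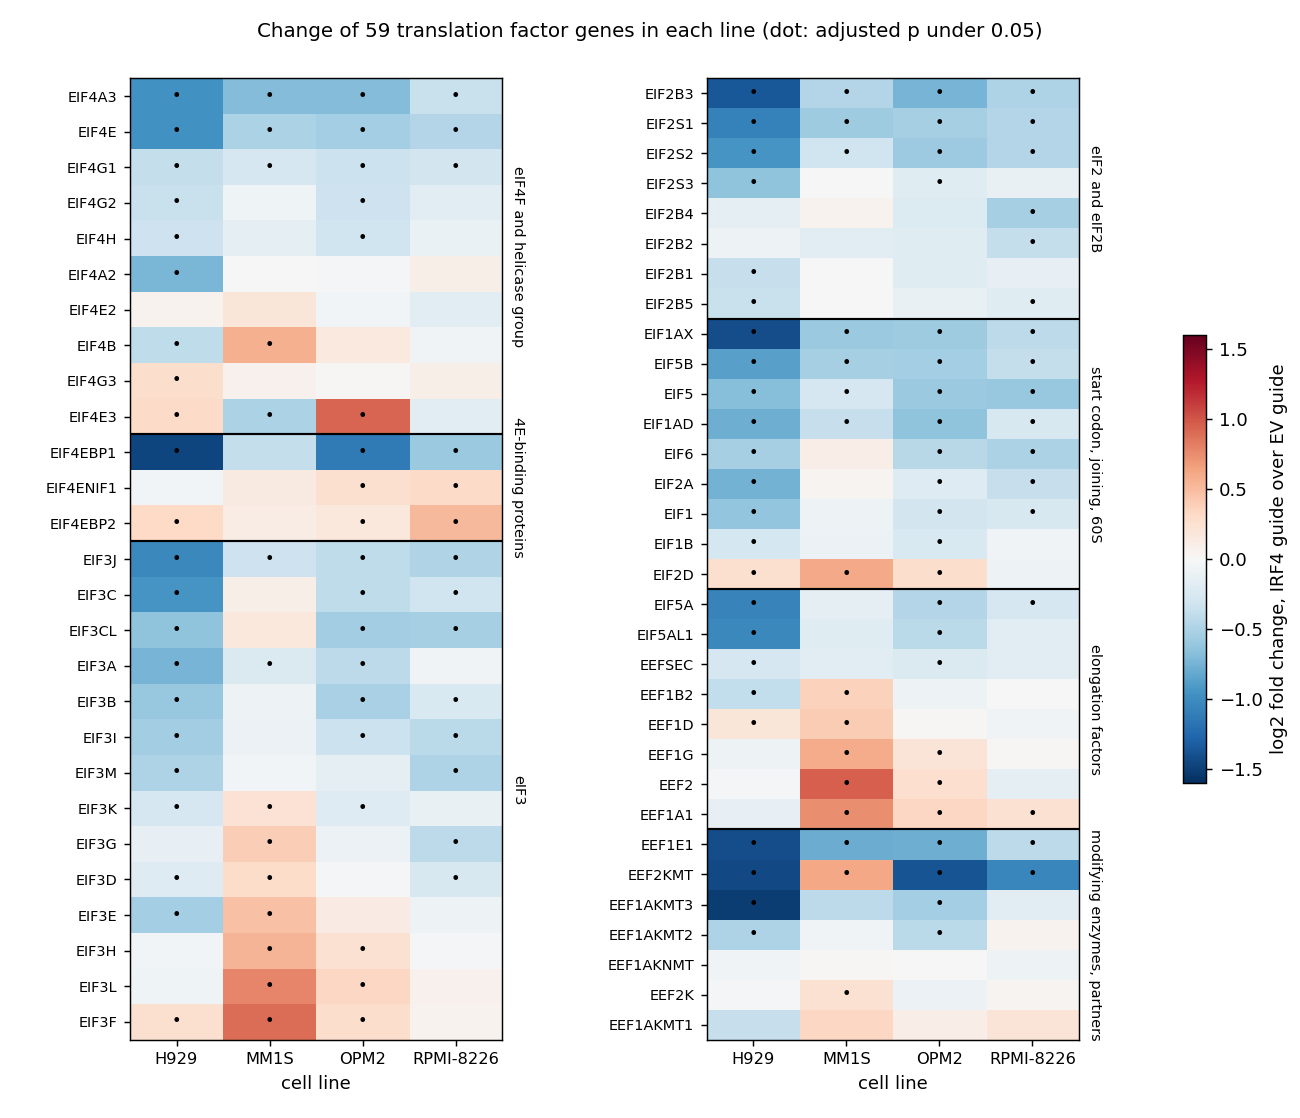
Log2 fold change of the IRF4 guide over EV for each of the 59 genes (rows, grouped by role) in each line (columns). Blue is lower, red is higher, and a dot marks an adjusted p under 0.05. The H929 column is mostly blue with 40 genes lower (67.8%, beside 26.1% of all genes tested). The MM1S column holds 16 higher (27.1%, beside 19.4%) and 14 lower (23.7%, beside 15.2%).

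Together these genes took a small share of each library, from 1.71 to 2.57% of counts. EEF2 and EEF1A1 made up much of it. Without this pair the share in H929 was 1.43, 1.39 and 1.35% with EV and 1.07, 1.03 and 1.07% with the IRF4 guide. In OPM2 it was 1.304, 1.302 and 1.252% against 1.217, 1.207 and 1.165%, and in RPMI-8226 1.378, 1.407 and 1.367% against 1.252, 1.29 and 1.229%. In these 3 lines the IRF4 libraries were lower without overlap, by the most in H929. In MM1S it was 1.27 and 1.25% with EV and 1.28, 1.26 and 1.29% with the IRF4 guide, which overlapped. With the pair included, MM1S had 1.77 and 1.80% with EV and 2.21, 2.23 and 2.29% with the IRF4 guide. The libraries are bulk samples and the values relative, so fewer cells of a kind and less RNA per cell cannot be told apart.

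**Figure D2:**
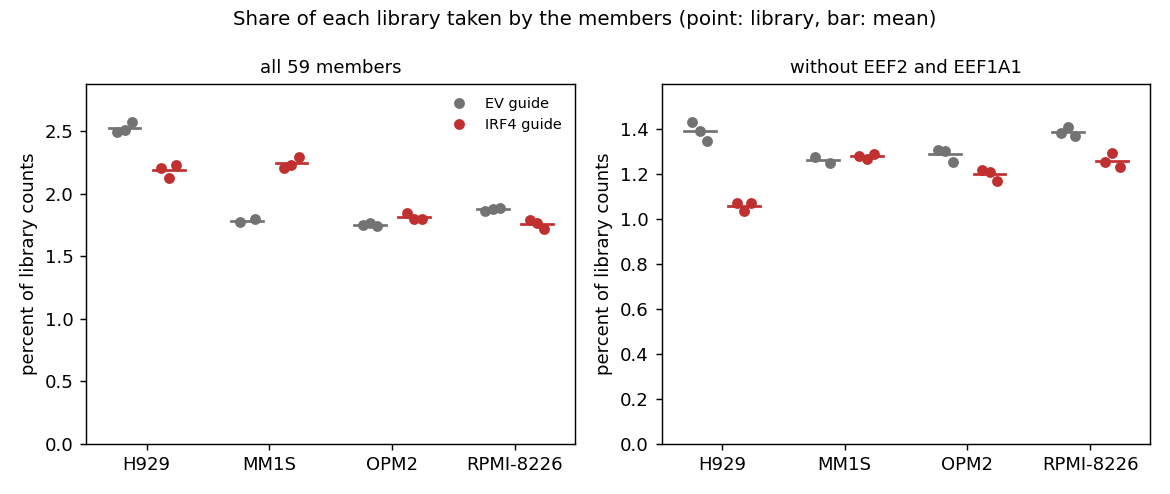
Percent of all counts in each library taken by the 59 genes (left) and by the same genes without EEF2 and EEF1A1 (right), by line. Points are libraries, bars are group means and colours are the guides. On the left MM1S is higher with the IRF4 guide (2.21 to 2.29% against 1.77 to 1.80%), and on the right H929 (1.03 to 1.07% against 1.35 to 1.43%), OPM2 and RPMI-8226 are lower without overlap.

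For the ternary complex and its exchange factor, 8 of 8 genes were called lower on average and none higher, beside 25.1% and 32.6% of all genes. By line 6 were lower in H929 (75%, beside 26.1% of all genes) and 3 in MM1S (37.5%, beside 15.2%). In OPM2 4 were lower (50%, beside 20.2%) and in RPMI-8226 6 (75%, beside 14.7%), with none higher in any line. eIF2 carries the initiator tRNA to the ribosome, and eIF2B reloads eIF2 with GTP after each round. EIF2S1 (Entrez 1965, chr14:67360328-67386516) encodes the alpha subunit, whose phosphorylation slows initiation under stress. It was at 331, 288 and 267 CPM with EV and 144, 135 and 141 with the IRF4 guide in H929, and at 121 and 104 against 77.2, 74.2 and 76.8 in MM1S. In the other lines it was at 283, 289 and 249 against 184, 202 and 179 in OPM2 and 158, 164 and 128 against 107, 117 and 102 in RPMI-8226. No IRF4 library reached its line's EV range. EIF2S1 fell by 0.66 ± 0.05 on average (adjusted p = 2.44e-13), from -0.47 in RPMI-8226 to -1.08 in H929, and the lines differed (adjusted p = 5.80e-04).

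EIF2B3 (Entrez 8891, chr1:44850522-44986595), the gamma subunit of eIF2B, was at 74.8, 68 and 64.6 CPM with EV and 26.1, 26.9 and 28.1 with the IRF4 guide in H929, and at 33.7 and 34.8 against 26.3, 22.4 and 25.2 in MM1S. The others had 28.5, 31.7 and 28.4 against 16.9, 19.5 and 16.1 in OPM2 and 81.9, 86.1 and 75.4 against 53.5, 64.5 and 55.6 in RPMI-8226. The guides were apart in every line, and the largest gap was in H929. Its average change was -0.77 ± 0.05, a 1.70-fold fall (adjusted p = 5.04e-14), with -1.35 in H929 and -0.47 to -0.75 in the others. The beta subunit gene EIF2S2 fell by 0.58 ± 0.05 on average, its MM1S call (-0.31 ± 0.11) being lost without any single one of MM1S EV replicate 2, MM1S EV replicate 3 and MM1S IRF4 replicate 3 (adjusted p from 0.0778 to 0.13), and EIF2S3, the gamma subunit, by 0.24 ± 0.03. EIF2S3 was called in H929 (-0.65) and OPM2 (-0.19) and read 0.00 in MM1S. The OPM2 call was lost without any single one of OPM2 EV replicate 2, OPM2 EV replicate 3, OPM2 IRF4 replicate 1, OPM2 IRF4 replicate 2 and RPMI-8226 IRF4 replicate 3 (adjusted p from 0.0501 to 0.0762). The other eIF2B subunits had smaller average falls, from -0.17 (EIF2B1, alpha) to -0.21 (EIF2B4, delta). EIF2B1, EIF2B2 and EIF2B4 were each called in only 1 line. EIF2B5, the catalytic subunit, changed by -0.17 ± 0.04 on average (adjusted p = 1.82e-04).

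Factors of start codon choice, subunit joining and 60S release fell in 8 of 9 cases on average (88.9%, beside 25.1% of all genes tested). EIF2D was the exception. EIF1AX (Entrez 1964, chrX:20124525-20141838) encodes eIF1A, which sits in the decoding site while the ribosome scans. It was at 153, 146 and 117 CPM with EV and 53.9, 50.3 and 51.4 with the IRF4 guide in H929, and at 118 and 113 against 78.9, 83.5 and 65.8 in MM1S. It was at 173, 166 and 154 against 108, 124 and 100.5 in OPM2 and 196, 200.5 and 157 against 141, 146 and 129 in RPMI-8226. Every IRF4 library lay below its line's EV libraries. EIF1AX fell by 0.75 ± 0.05 on average (adjusted p = 3.88e-13), and its fall of -1.42 in H929 set against -0.41 to -0.60 elsewhere gave a difference between lines (adjusted p = 5.51e-06).

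EIF5B, the GTPase that joins the ribosomal subunits, fell by 0.58 ± 0.04 on average (adjusted p = 1.37e-13) and in each line, from -0.38 in RPMI-8226 to -0.87 in H929. EIF5, which triggers GTP hydrolysis by eIF2, fell by 0.54 ± 0.05, and the test of a difference among lines missed the threshold (adjusted p = 0.0593). Its fall in MM1S (-0.27 ± 0.10) was not called without any single one of MM1S EV replicate 2, MM1S EV replicate 3, MM1S IRF4 replicate 1 and MM1S IRF4 replicate 2 (adjusted p from 0.0622 to 0.272). EIF1AD, an eIF1A domain protein, fell by 0.51 ± 0.04. Its MM1S call (-0.37 ± 0.10) was lost without MM1S EV replicate 2 (adjusted p = 0.0509), and its RPMI-8226 call (-0.25 ± 0.08) without any single one of RPMI-8226 EV replicate 1, RPMI-8226 EV replicate 2 and RPMI-8226 IRF4 replicate 1 (adjusted p from 0.0507 to 0.107). EIF1, the other gatekeeper of start codon choice, fell by 0.31 ± 0.04 on average but read -0.08 ± 0.08 in MM1S (not called), and EIF6, which keeps the large subunit from joining early, fell by 0.34 ± 0.05 with 0.11 ± 0.11 in MM1S (not called). EIF2A, an alternative initiator tRNA factor, fell by 0.32 ± 0.04, and EIF1B, a paralog of EIF1, by 0.17 ± 0.05.

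EIF2D (Entrez 1939, chr1:206569146-206612465), a factor for initiation without eIF2 and for recycling, went the other way. It was at 41.99, 38.1 and 45.7 CPM with EV and 51.7, 51.3 and 48.4 with the IRF4 guide in H929, and at 88.5 and 86.5 against 134, 137 and 129 in MM1S. The other lines gave 63.6, 55.6 and 58.3 against 81.1, 69.4 and 66.2 in OPM2 and 96.99, 97.98 and 102 against 95.3, 101 and 85.1 in RPMI-8226. The IRF4 libraries were above EV in H929, MM1S and OPM2 and overlapped EV in RPMI-8226. On average it rose by 0.27 ± 0.04 (adjusted p = 3.64e-06), and the lines differed (adjusted p = 4.64e-04). The rise was 0.61 ± 0.10 in MM1S and 0.26 ± 0.09 in H929. The H929 call was lost without any single one of H929 EV replicate 2 and H929 IRF4 replicate 1 (adjusted p from 0.0651 to 0.0795), and the OPM2 call (0.28 ± 0.08) without OPM2 IRF4 replicate 1 (adjusted p = 0.0852).

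The cap-binding complex and its helicase group, 10 genes, had 5 lower (50%, beside 25.1% of all genes) and 2 higher (20%, beside 32.6%) on average. Of the 2, none stayed higher without H929 IRF4 replicate 3 or RPMI-8226 EV replicate 2. EIF4E (Entrez 1977, chr4:98879276-98929133), the cap-binding protein, was at 58.7, 49.1 and 45.9 CPM with EV and 26.4, 24.9 and 27.3 with the IRF4 guide in H929, and at 44.5 and 37.8 against 33.1, 26.5 and 26.2 in MM1S. The remaining lines had 62.4, 63.3 and 59.9 against 41.5, 43.9 and 41.8 in OPM2 and 41.3, 40.1 and 37.7 against 27.6, 28.9 and 29.8 in RPMI-8226. The guides did not overlap in any line. EIF4E fell 1.54-fold on average (-0.62 ± 0.05, adjusted p = 7.49e-12), from -0.47 in RPMI-8226 to -0.97 in H929. In MM1S (-0.51 ± 0.12) the call was lost without MM1S EV replicate 2 (adjusted p = 0.0606).

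EIF4A3 (Entrez 9775, chr17:80134369-80147128) is the helicase paralog that marks exon junctions rather than part of eIF4F. It was at 194, 185 and 174 CPM with EV and 99.1, 86.4 and 96.7 with the IRF4 guide in H929, and at 169 and 168 against 112, 106 and 92.7 in MM1S. Further values were 188, 185 and 171 against 108, 119.6 and 108 in OPM2 and 184, 193 and 170.4 against 135, 160.5 and 131 in RPMI-8226. Each line was lower with the IRF4 guide without overlap, while the EV libraries of the 4 lines lay close together. EIF4A3 fell by 0.68 ± 0.04 on average (adjusted p = 2.65e-14), with a smaller fall in RPMI-8226 (-0.36) than in the other lines (difference 0.43 ± 0.10, adjusted p = 0.00114).

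The promoter windows below show the E-box CACGTG, the DNA motif bound by MYC and related factors. They come from 3 of the 12 genes whose fall was called in all 4 lines. EIF4G1, another of the 12, also has the motif and is not shown. The motif was chosen for display after the values were seen. Capitals mark the motif, sequences run 5′ to 3′ along the gene, and positions are on GRCh38.p14 from RefSeq.
EIF4E, 72 bases before the start, chr4:98929188-98929217, minus strand: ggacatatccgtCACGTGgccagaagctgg
EIF4E, 225 bases before the start, chr4:98929341-98929370, minus strand: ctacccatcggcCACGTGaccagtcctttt
EIF4A3, 121 bases before the start, chr17:80147232-80147261, minus strand: ccagttccctttCACGTGacgaagagtgcc
EIF2B3, 179 bases before the start, chr1:44986757-44986786, minus strand: gacagagggacaCACGTGtcgaatgctcct
RefSeq promoter entries matched 47 of the 59 genes. Searching the 250 bases before each listed start on both strands, CACGTG, which reads the same on each, was found in 11 of the 47 (23.4%), beside 7.73% of 27305 genes with an entry. These were EIF4E and EIF4G1 with the motif at 2 places, and EIF4A3, EIF2B3, EIF3F, EIF4B, EIF3K, EIF4H, EIF1B, EEF2K and EEFSEC. Of the 12 genes lower in all 4 lines, EIF2S1, EIF1AX, EIF1AD, EIF5, EIF5B, EIF3J and EEF1E1 had no such motif. EIF2S2 had no entry. On average 8 of the 11 were called lower and 1 higher (EIF3F), with a median of -0.22, and of the 36 without the motif 23 were lower and 8 higher, with a median of -0.23. No MYC binding was measured here.

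EIF4G1 (Entrez 1981, chr3:184314606-184335358), the main scaffold, and its paralog EIF4G3 (Entrez 8672, chr1:20806292-21176897) differed in their calls. EIF4G1 was at 900.4, 973 and 912 CPM with EV and 719, 721 and 695 with the IRF4 guide in H929, and at 1111 and 1098 against 931, 923 and 887 in MM1S. It was at 984, 1065 and 998 against 766, 873 and 767 in OPM2 and 1524, 1594 and 1494.8 against 1191, 1391 and 1179 in RPMI-8226. All 4 lines were lower without overlap. EIF4G1 fell by 0.32 ± 0.04 on average (adjusted p = 4.39e-09) to a similar extent in the lines, -0.27 to -0.38, and the test between them missed the threshold (adjusted p = 0.782). In MM1S the call was lost without MM1S EV replicate 2 (adjusted p = 0.0589). EIF4G3 was at 86.02, 88.3 and 89.04 CPM with EV and 98.3, 106 and 114 with the IRF4 guide in H929, and at 67.98 and 63.6 against 65.1, 69.8 and 72.9 in MM1S. The others were at 43.5, 44.8 and 47.3 against 41.1, 45.5 and 50.4 in OPM2 and 93.9, 94.5 and 96.6 against 107, 85.9 and 112 in RPMI-8226. It was above EV in H929 (0.28 ± 0.09, adjusted p = 0.0081) and overlapped it elsewhere. Without H929 IRF4 replicate 3 the H929 call was lost (adjusted p = 0.0917). Its average of 0.11 ± 0.05 was called at an adjusted p of 0.0367, and the call was lost without any single one of 13 libraries (adjusted p from 0.0505 to 0.121).

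EIF4A1, the main helicase of eIF4F, was listed at 0 counts in all 23 libraries and so was not among the 59. A read-through gene that overlaps it in RefSeq, SENP3-EIF4A1, had 0 to 7 counts. The sources used here do not say how the authors' counting treated this locus, and its level was not analysed here. Its paralog EIF4A2 (Entrez 1974, chr3:186783577-186789897) was at 210.5, 223 and 256 CPM with EV and 119, 134 and 165 with the IRF4 guide in H929, and at 386 and 390.1 against 342, 344 and 485 in MM1S. The others had 172, 170.2 and 187 against 145, 169.9 and 203 in OPM2 and 141, 163 and 187 against 157, 130.1 and 234 in RPMI-8226. Its IRF4 libraries were below EV in H929 (-0.73 ± 0.20, adjusted p = 0.00467) and overlapped EV in the rest, and the average of -0.16 ± 0.10 was not called. The replicates of EIF4A2 spread widely, with standard errors of 0.20 to 0.22.

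EIF4B (Entrez 1975, chr12:53006456-53042215), which stimulates the helicase, moved in opposite directions. It was at 732, 666 and 757 CPM with EV and 533, 499.6 and 599.7 with the IRF4 guide in H929, and at 434 and 409 against 618, 619.8 and 644 in MM1S. The other lines held 573, 552 and 565 against 646, 614 and 617 in OPM2 and 484, 471 and 449.5 against 481, 392 and 479 in RPMI-8226. It was lower in H929, higher in MM1S and above EV in OPM2, and it overlapped in RPMI-8226. The changes were -0.40 ± 0.08 in H929 (adjusted p = 4.27e-05), 0.57 ± 0.09 in MM1S (adjusted p = 5.58e-06) and 0.15 ± 0.08 in OPM2 (not called), with a difference between lines at an adjusted p of 5.08e-07. EIF4H, with a similar role, fell by 0.23 ± 0.04 on average, and EIF4G2, a scaffold that lacks the eIF4E site, by 0.23 ± 0.04. EIF4E2, a cap-binding repressor, was at 0.01 ± 0.04 (not called).

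EIF4E3 (Entrez 317649, chr3:71659363-71754773), a cap-binding paralog of eIF4E, had the widest spread in level of the 59 genes between lines with EV, 7.53-fold from OPM2 to MM1S. It was at 22.9, 21.5 and 23.9 CPM with EV and 27.3, 26.9 and 30.2 with the IRF4 guide in H929, and at 104 and 103 against 71.7, 78.1 and 69 in MM1S. It stood at 13.4, 12.7 and 15.1 against 25.97, 27.5 and 25.9 in OPM2 and 19.4, 15.02 and 15.9 against 14.97, 13.8 and 16.2 in RPMI-8226. The line with the lowest level, OPM2, rose 1.91-fold (0.93 ± 0.10, adjusted p = 1.49e-08), and the line with the highest, MM1S, fell (-0.51 ± 0.10, adjusted p = 2.73e-04), neither with overlap. It was 0.30 ± 0.10 in H929 and -0.17 ± 0.10 in RPMI-8226 (not called), and the lines differed (adjusted p = 1.36e-08). The H929 call was lost without H929 IRF4 replicate 3 (adjusted p = 0.097). EIF4E3 was the 1 gene of the 59 whose change in MM1S was called below that of the other lines (-0.86 ± 0.12).

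The repressors of cap binding split by gene. EIF4EBP1 (Entrez 1978) encodes 4E-BP1, which keeps eIF4E from eIF4G until mTORC1 phosphorylates it, and it had the largest average fall of the 59. It was at 115, 107 and 109 CPM with EV and 42.1, 37.05 and 39.6 with the IRF4 guide in H929, and at 46.5 and 48.1 against 44.9, 36.4 and 24.8 in MM1S. Levels in the others were 96.8, 98.9 and 109 against 41.2, 48.7 and 49.6 in OPM2 and 84.6, 74.9 and 81.5 against 52.2, 64.4 and 42.5 in RPMI-8226. All IRF4 libraries were below their line's EV libraries, but in MM1S by a small margin. EIF4EBP1 fell by 0.89 ± 0.07 on average (adjusted p = 1.22e-10), by 1.47 ± 0.14 in H929 and 1.13 ± 0.14 in OPM2, and was not called in MM1S (-0.38 ± 0.17, adjusted p = 0.0851). The lines differed (adjusted p = 4.34e-04).

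EIF4EBP2 (Entrez 1979, chr10:70404145-70428618), the paralog with the same role, was at 139.9, 140.3 and 127 CPM with EV and 173, 169 and 165 with the IRF4 guide in H929, and at 329.8 and 336 against 356, 349 and 377 in MM1S. It was at 220.0, 236 and 229 against 259, 249.9 and 259 in OPM2 and 224, 204 and 197 against 304, 283 and 307 in RPMI-8226. Each line was higher without overlap. Its average rise was 0.28 ± 0.03 (adjusted p = 2.69e-08), it rose by 0.51 ± 0.07 in RPMI-8226, and it was not called in MM1S (0.11 ± 0.07). The call in OPM2 (0.17 ± 0.07) was lost without any single one of H929 IRF4 replicate 1, H929 IRF4 replicate 3, OPM2 EV replicate 1, OPM2 EV replicate 3, OPM2 IRF4 replicate 1 and OPM2 IRF4 replicate 3 (adjusted p from 0.0512 to 0.147). Per length, on the deposited log2 RPKM scale, the EIF4EBP1 level with EV was 6.98 ± 0.03 (SD, n = 3) in H929 against 4.13 ± 0.08 for EIF4EBP2, and in MM1S the 2 were 5.76 ± 0.02 and 5.53 ± 0.02 (n = 2). EIF4ENIF1, which carries eIF4E to the nucleus and to sites of mRNA decay, rose by 0.17 ± 0.05 on average (adjusted p = 0.00255).

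**Figure D3:**
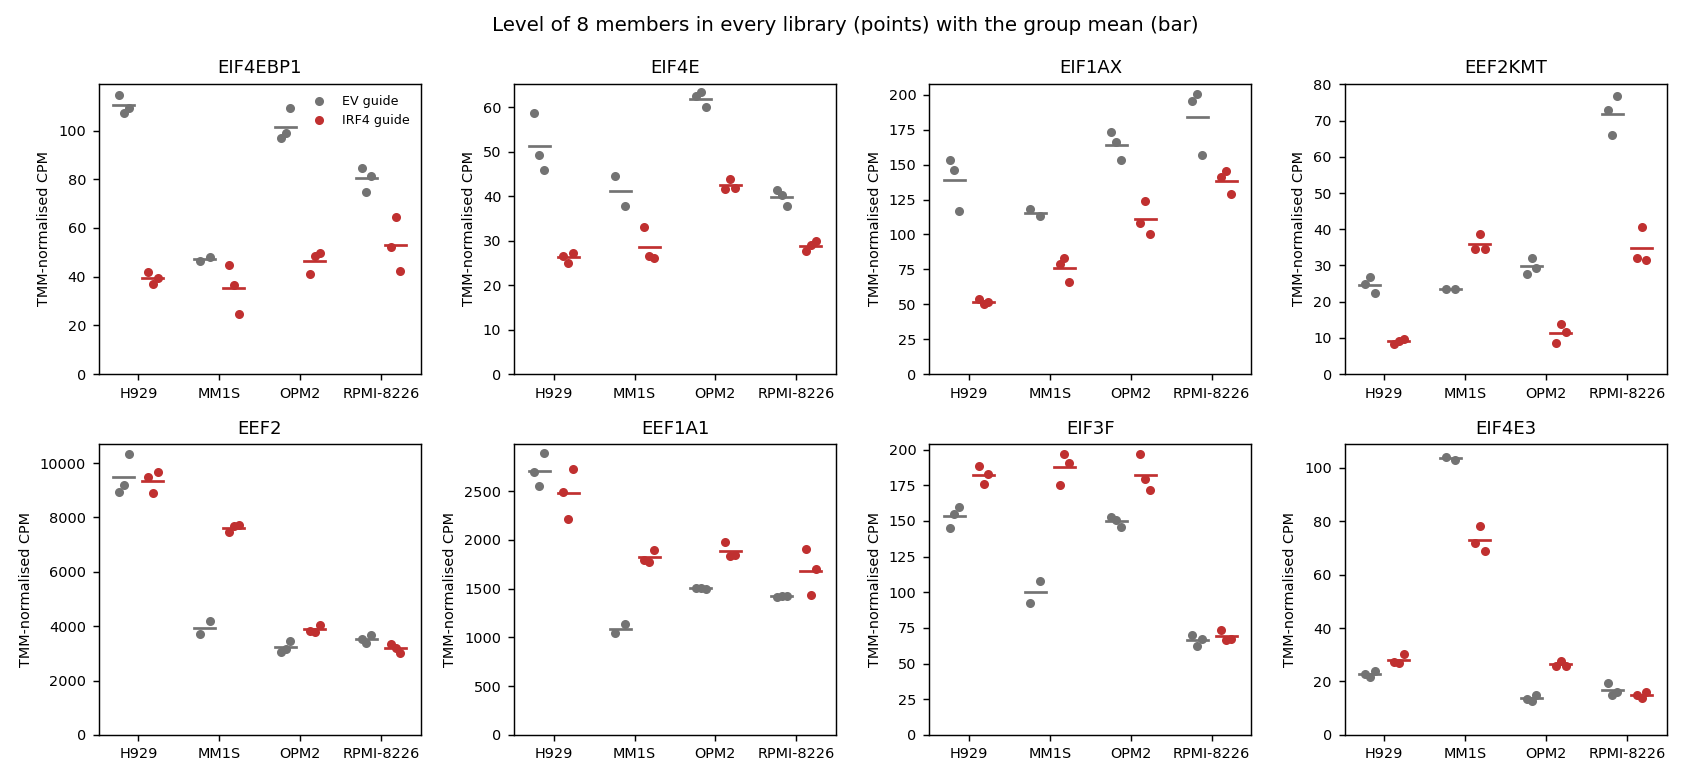
TMM-normalised CPM of 8 genes in every library (points) with the group mean (bar), by line and guide, on linear axes that start at 0. EIF4EBP1, EIF4E and EIF1AX sit lower with the IRF4 guide in each line, EEF2KMT does so outside MM1S, and EEF2 in MM1S goes from 3700 and 4184 to between 7471 and 7706 CPM.

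The eIF3 scaffold, which bridges the small ribosomal subunit and eIF4G, is represented by 14 genes. On average 8 were lower (57.1%, beside 25.1% of all genes tested) and 3 higher (21.4%, beside 32.6%). In H929 10 were lower (71.4%, beside 26.1%) and 1 higher (7.14%, beside 32.9%). In MM1S, by contrast, 7 were higher (50%, beside 19.4%) and 2 lower (14.3%, beside 15.2%). The MM1S counts were 4 higher and 0 lower without MM1S EV replicate 2, and 1 was lower without MM1S IRF4 replicate 2 or MM1S IRF4 replicate 3. The change differed between lines for all 14, beside 48% of all genes. MM1S was above the mean of the other lines by its own test for 13 (92.9%, beside 10.3% of all genes). Subunits that budding yeast also has were EIF3A at -0.36, EIF3B at -0.36, EIF3C at -0.39, EIF3I at -0.36 and EIF3G at -0.06 on average, with the loosely bound EIF3J at -0.56. All but EIF3G were called lower. Subunits absent from budding yeast were EIF3M at -0.29, EIF3K at -0.09, EIF3D at -0.05, EIF3E at 0.00, EIF3H at 0.18, EIF3L at 0.28 and EIF3F at 0.37. Of these EIF3M and EIF3K were called lower, EIF3H, EIF3L and EIF3F higher, and EIF3D and EIF3E were not called. This grouping was made after the values were seen. The EIF3K call was lost without any single one of 14 libraries (adjusted p from 0.0512 to 0.243). EIF3C and EIF3CL (-0.39) are near-identical copies, so their reads can be split between them.

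EIF3F (Entrez 8665, chr11:7987337-8001852) had the largest average rise of the 59 genes. It was at 145, 155 and 159.7 CPM with EV and 189, 176 and 183 with the IRF4 guide in H929, and at 92.8 and 108 against 175, 197 and 190.4 in MM1S. It was at 153, 151 and 146 against 197, 179 and 171 in OPM2 and 70.1, 62.2 and 67.2 against 73.3, 66.9 and 67.3 in RPMI-8226. It was above EV without overlap in H929, MM1S and OPM2. EIF3F rose by 0.37 ± 0.04 on average (adjusted p = 1.19e-09) and 1.86-fold in MM1S (0.90 ± 0.09), while RPMI-8226 read 0.06 ± 0.08 (not called).

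EIF3L (Entrez 51386, chr22:37849419-37889407) was at 567, 502 and 562 CPM with EV and 515, 476 and 559 with the IRF4 guide in H929, and at 281 and 308 against 504, 506 and 504 in MM1S. Its levels were 409.9, 370.4 and 388 against 525, 463 and 488 in OPM2 and 326, 301 and 326 against 347, 299 and 357 in RPMI-8226. MM1S and OPM2 were higher without overlap, and H929 and RPMI-8226 overlapped. The rise was 0.78 ± 0.09 in MM1S (adjusted p = 5.27e-08), 0.34 ± 0.08 in OPM2 and 0.28 ± 0.04 on average. EIF3H (Entrez 8667) followed the same order, at 422, 357 and 405 CPM with EV and 407, 341 and 403 with the IRF4 guide in H929, and at 216 and 217 against 310.4, 299 and 336 in MM1S. It had 161, 149 and 159 against 192, 179 and 187 in OPM2 and 239, 231 and 230.3 against 248, 206 and 239 in RPMI-8226. EIF3H rose by 0.54 ± 0.09 in MM1S and 0.25 ± 0.08 in OPM2, without overlap in either, and the lines differed (adjusted p = 4.41e-04).

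EIF3E, a PCI-domain subunit, was lower in H929 (-0.54 ± 0.08) and higher in MM1S (0.47 ± 0.09). It stood at 849 ± 51.1 CPM (SD, n = 3) with EV in H929 and 183 ± 15.4 (n = 2) in MM1S, a 4.65-fold range. EIF3D, a subunit that can itself bind caps, was lower in H929 (-0.20 ± 0.07) and RPMI-8226 (-0.26 ± 0.07) and higher in MM1S (0.30 ± 0.08). The EIF3D call in H929 was lost without H929 IRF4 replicate 2 (adjusted p = 0.0654) and that in MM1S without MM1S EV replicate 2 (adjusted p = 0.0623). EIF3G was lower in RPMI-8226 (-0.42 ± 0.08) and higher in MM1S (0.39 ± 0.10), the latter call lost without MM1S EV replicate 2 (adjusted p = 0.0895). EIF3K was lower in H929 (-0.27 ± 0.08) and OPM2 (-0.20 ± 0.08) and higher in MM1S (0.23 ± 0.09, adjusted p = 0.0433). The MM1S call of EIF3K was lost without any single one of H929 EV replicate 3, H929 IRF4 replicate 1, H929 IRF4 replicate 3, MM1S EV replicate 2, MM1S IRF4 replicate 1, MM1S IRF4 replicate 2, OPM2 EV replicate 2, RPMI-8226 EV replicate 1 and RPMI-8226 IRF4 replicate 3 (adjusted p from 0.0501 to 0.536), and the OPM2 call without any single one of OPM2 EV replicate 1, OPM2 EV replicate 2, OPM2 IRF4 replicate 2, OPM2 IRF4 replicate 3 and RPMI-8226 IRF4 replicate 3 (adjusted p from 0.0549 to 0.185). EIF3J, by contrast, fell in each line, from -0.33 in MM1S to -1.03 in H929. The MM1S call of EIF3J was lost without MM1S EV replicate 2 (adjusted p = 0.101).

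**Figure D4:**
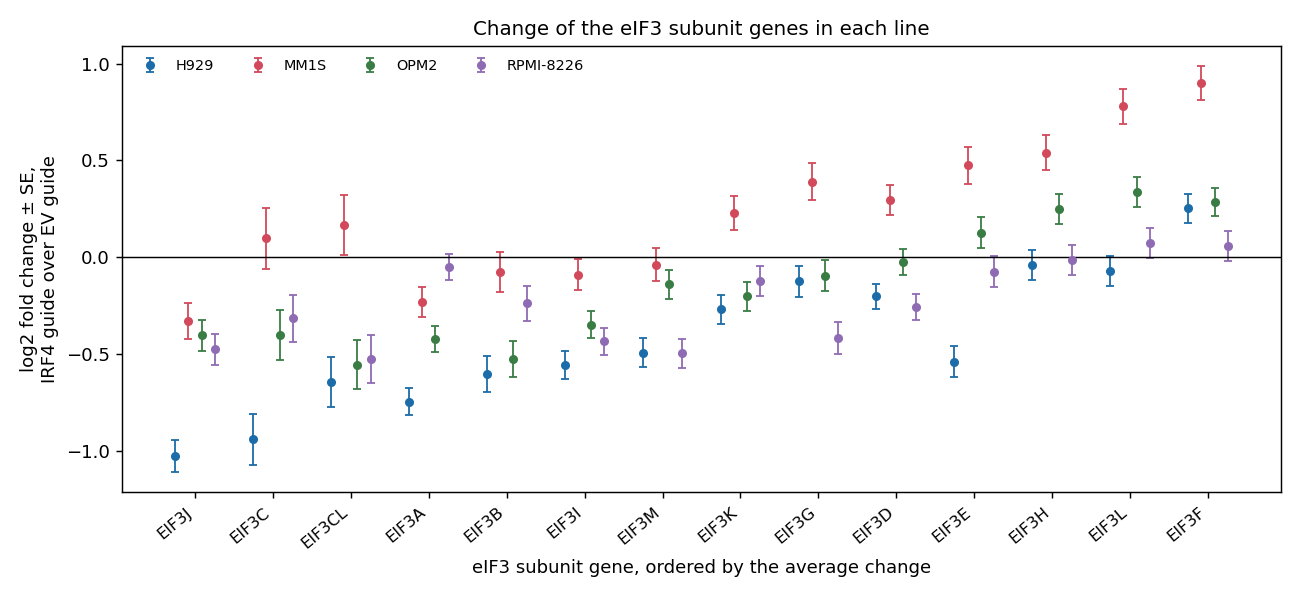
Log2 fold change of the IRF4 guide over EV, with its standard error, for the 14 eIF3 genes in each line (colours). MM1S is above the mean of the other lines by test for 13 of 14 genes (92.9%, beside 10.3% of all genes). EIF3F is at 0.90 and EIF3L at 0.78 in MM1S, and H929 has the lowest value for EIF3J at -1.03.

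Elongation factors proper, 8 genes, had 4 higher and 3 lower on average, and in MM1S 5 higher and none lower (edgeR quasi-likelihood test at an adjusted p under 0.05). These are 50% and 37.5% on average, beside 32.6% and 25.1% of all genes tested. The 5 in MM1S are 62.5%, beside 19.4% of all genes higher and 15.2% lower there. EEF2 (Entrez 1938, chr19:3976056-3985463), the translocase, was at 8942, 9193 and 10325 CPM with EV and 9505, 8895 and 9663 with the IRF4 guide in H929, and at 3699.9 and 4184 against 7471, 7669 and 7706 in MM1S. The remaining values were 3058, 3171 and 3453 against 3835, 3787 and 4040.2 in OPM2 and 3525, 3396 and 3666 against 3340.3, 3212 and 3014 in RPMI-8226. In MM1S the IRF4 libraries were far above EV, in OPM2 they were above EV by less, H929 overlapped and RPMI-8226 lay just below EV. EEF2 rose 1.93-fold in MM1S (0.95 ± 0.08, adjusted p = 4.63e-10) and by 0.27 ± 0.07 in OPM2. It read -0.02 ± 0.07 in H929 and -0.15 ± 0.07 in RPMI-8226 (neither called), and the lines differed (adjusted p = 6.18e-09).

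EEF1A1 (Entrez 1915, chr6:73515750-73521032), which brings aminoacyl-tRNA to the ribosome, was at 2698, 2549 and 2888 CPM with EV and 2492, 2215 and 2723 with the IRF4 guide in H929, and at 1044 and 1137 against 1799, 1778 and 1899.6 in MM1S. It was at 1511, 1504 and 1497 against 1981, 1835 and 1845 in OPM2 and 1417, 1419.5 and 1424 against 1910.3, 1433 and 1700.2 in RPMI-8226. MM1S, OPM2 and RPMI-8226 were above EV without overlap, RPMI-8226 by a narrow margin in replicate 2. The rise was 0.74 ± 0.09 (MM1S), 0.33 ± 0.08 (OPM2) and 0.24 ± 0.08 (RPMI-8226), beside -0.13 ± 0.08 in H929 (not called). The RPMI-8226 call was lost without any single one of OPM2 EV replicate 2, RPMI-8226 EV replicate 1, RPMI-8226 EV replicate 2, RPMI-8226 IRF4 replicate 1 and RPMI-8226 IRF4 replicate 3 (adjusted p from 0.0508 to 0.222). EEF1A1 has many near-identical copies in the genome, so its counts are uncertain to that extent.

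Its paralog EEF1A2, outside the 59 because of low counts in MM1S, differed widely in level between lines. It was at 19.2, 21.3 and 22.7 CPM with EV and 24.3, 17.02 and 21.2 with the IRF4 guide in H929. Its values were 356, 404 and 459.6 against 404, 429 and 499 in OPM2 and 22.7, 18.6 and 22.4 against 29.98, 22.8 and 29.1 in RPMI-8226. In MM1S it had 3 counts in 1 library and 0 in the other 4. A change was called in RPMI-8226 (0.37 ± 0.13, adjusted p = 0.0324) and not in H929 or OPM2.

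EEF1G (Entrez 1937, chr11:62559596-62573891), a subunit of the exchange factor eEF1B, was at 1002, 916 and 1031 CPM with EV and 958, 837 and 998 with the IRF4 guide in H929, and at 533 and 561 against 879, 779 and 821 in MM1S. In the others it was at 629, 590.5 and 574 against 700.0, 681 and 685 in OPM2 and 792, 754 and 781 against 854, 697 and 798 in RPMI-8226. It was above EV without overlap in MM1S and OPM2. EEF1G rose by 0.60 ± 0.09 in MM1S (adjusted p = 3.14e-06). The rise in OPM2 (0.20 ± 0.08) was lost without any single one of OPM2 EV replicate 2, OPM2 EV replicate 3, OPM2 IRF4 replicate 1 and OPM2 IRF4 replicate 3 (adjusted p from 0.056 to 0.112). EEF1D, another subunit, rose in MM1S (0.40 ± 0.08), and EEF1B2, the exchange subunit, was higher in MM1S (0.37 ± 0.10) and lower in H929 (-0.40 ± 0.09).

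EIF5A (Entrez 1984, chr17:7306999-7312463), which helps the ribosome past proline-rich stretches, went the other way. It was at 761, 674 and 606 CPM with EV and 337, 323 and 315 with the IRF4 guide in H929, and at 678 and 683 against 686, 628 and 513 in MM1S. It stood at 568, 546 and 537 against 397, 413 and 383 in OPM2 and 821, 837 and 782 against 662, 778 and 585 in RPMI-8226. H929, OPM2 and RPMI-8226 were below EV without overlap and MM1S overlapped. It fell 2.09-fold in H929 (-1.07 ± 0.09, adjusted p = 5.03e-11), by 0.47 ± 0.09 in OPM2 and by 0.27 ± 0.09 in RPMI-8226, and was not called in MM1S (-0.16 ± 0.10). The RPMI-8226 call was lost without any single one of RPMI-8226 EV replicate 1, RPMI-8226 EV replicate 2, RPMI-8226 IRF4 replicate 1 and RPMI-8226 IRF4 replicate 3 (adjusted p from 0.0662 to 0.151). EIF5AL1 (-0.46 on average) is a near-identical copy, so its reads may come from EIF5A. The paralog EIF5A2, outside the 59, had 0 counts in all 6 RPMI-8226 libraries. It was at 23.7, 20.3 and 18.7 CPM with EV and 22.4, 21.8 and 23.9 with the IRF4 guide in H929, and at 16.1 and 18.1 against 11.5, 10.7 and 10.4 in MM1S. It was at 2.71, 1.90 and 2.60 against 3, 4.39 and 3.57 in OPM2. EIF5A2 fell in MM1S (-0.64 ± 0.17, adjusted p = 0.00429) and rose in OPM2 (0.53 ± 0.18, adjusted p = 0.0217). EEFSEC, the selenocysteine factor, fell by 0.22 ± 0.05 on average.

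The first bases of these mRNAs are shown because the genes that rose in MM1S included several TOP mRNAs. A pyrimidine start was taken as a C at a listed first base followed by at least 4 more pyrimidines, a rule set after the values were seen. Each window holds 12 bases before the start and 18 from it, 5′ to 3′ along the gene on GRCh38.p14 (RefSeq), with the pyrimidine run in capitals. The first 8 have such a start and were called higher in MM1S. EIF2A, EIF2S3, EIF3M and EIF4A2 also have such a start but were not called in MM1S, and are not shown.
EEF2, chr19:3985446-3985475, minus strand: gacgtcagcgttCTCTTCCgccgtcgtcgc
EEF1A1, chr6:73521015-73521044, minus strand: gccgtgaacgttCTTTTTCgcaacgggttt
EEF1B2, chr2:206159883-206159912, plus strand: gtctcttcgggtCCTTTTTCCTCTCTTCag
EIF3F, chr11:7987325-7987354, plus strand: cgcttccgcctcCTTCTTTCTCgacaagat
EIF3D, chr22:36529149-36529178, minus strand: cgcgcatgtttcCTCTTTTCCTggtttctc
EIF3K, chr19:38619176-38619205, plus strand: cgtttccaccacCTCTTCCTgttcccgtcc
EIF4B, chr12:53006444-53006473, plus strand: cctcatccgggtCTTTTgcgttctctttcc
EIF2D, chr1:206612448-206612477, minus strand: ttccagccgggcCCTTTTCgcggccgggcc
EEF1G (0.60) and EEF2K (0.25), called higher in MM1S without such a start, are not shown. For comparison, 4 of the 12 genes with other listed starts that were called lower in MM1S are shown. They have no such start, so no base is in capitals.
EIF1AX, chrX:20141821-20141850, minus strand: aagagtcgcggcgccatttgctgccgccga
EIF4E, chr4:98929116-98929145, minus strand: tctggagcggttgtgcgatcagatcgatct
EIF4A3, chr17:80147111-80147140, minus strand: ctcggcagcggcacagcgaggtcggcagcg
EIF2B3, chr1:44986578-44986607, minus strand: gggctgtcagtcagaggcggcgtggagatc
The start of EEF1B2 is the second of 2 listed.

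A pyrimidine start was found in 12 of the 47 genes with an entry (25.5%), beside 5.14% of 27305 genes. The other 4 were EIF2A, EIF2S3, EIF3M and EIF4A2. In MM1S 8 of the 12 were called higher and none lower, beside 19.4% and 15.2% of all genes tested, with a median of 0.33. Among the 8, EIF3D read 0.26 and EIF3K 0.11 without MM1S EV replicate 2, and neither kept its call. Of the 35 with other starts 2 (EEF1G and EEF2K) were higher and 12 lower, with a median of -0.09. Without MM1S EV replicate 2 the 35 had 1 higher and 7 lower. In H929 the 12 had 2 higher and 8 lower (median -0.33) and the 35 had 3 higher and 25 lower (median -0.49), where 1 of the 35 was higher without H929 IRF4 replicate 3 and 1 of the 12 without H929 IRF4 replicate 1 or H929 EV replicate 2. In OPM2 the medians were -0.03 and -0.34, and in RPMI-8226 -0.10 and -0.25. The 12 genes with no entry, EIF4EBP1, EEF2KMT, EEF1AKMT1, EEF1AKMT3, EIF2S2, EIF3A, EIF3CL, EIF3E, EIF3G, EIF3H, EIF3L and EEF1D, had 6 higher and 2 lower in MM1S, and 0 lower without MM1S EV replicate 2 or MM1S IRF4 replicate 3. Listed starts are annotation and were not measured in these cells.

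Against the mean response of the other 3 lines, MM1S was higher for 32 of the 59 genes (54.2%, beside 10.3% of all genes tested). It was lower for 1 (1.69%, beside 9.83%), with a median difference of 0.34 beside 0.02 over all genes. The higher count was 19 without MM1S EV replicate 2 and 20 without MM1S EV replicate 3. EEF2KMT (1.90 ± 0.17) and EEF2 (0.92 ± 0.09) had the largest differences. The cytosolic ribosomal protein genes were 78 by symbol, with at least 10 counts in every library. In MM1S 62 were higher (79.5%, beside 19.4% of all genes) and 1 lower (1.28%, beside 15.2%). Their median was 0.67 in MM1S, beside -0.12 in H929, 0.02 in OPM2 and -0.15 in RPMI-8226. Without MM1S EV replicate 2 the higher count was 39, in a list by the same symbols that did not need 10 counts in every library. MYC rose in MM1S and fell in the other lines, and its part in these differences was not tested. RPMI-8226 minus the others gave 12 of the 59 higher (20.3%, beside 12.6% of all genes) and 12 lower (20.3%, beside 12.3%). EEF2 (-0.55 ± 0.08) was lowest and EEF1AKMT3 (0.64 ± 0.18) highest. The higher count was 6 without RPMI-8226 IRF4 replicate 2, and the lower count 7 without RPMI-8226 EV replicate 1.

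**Figure D5:**
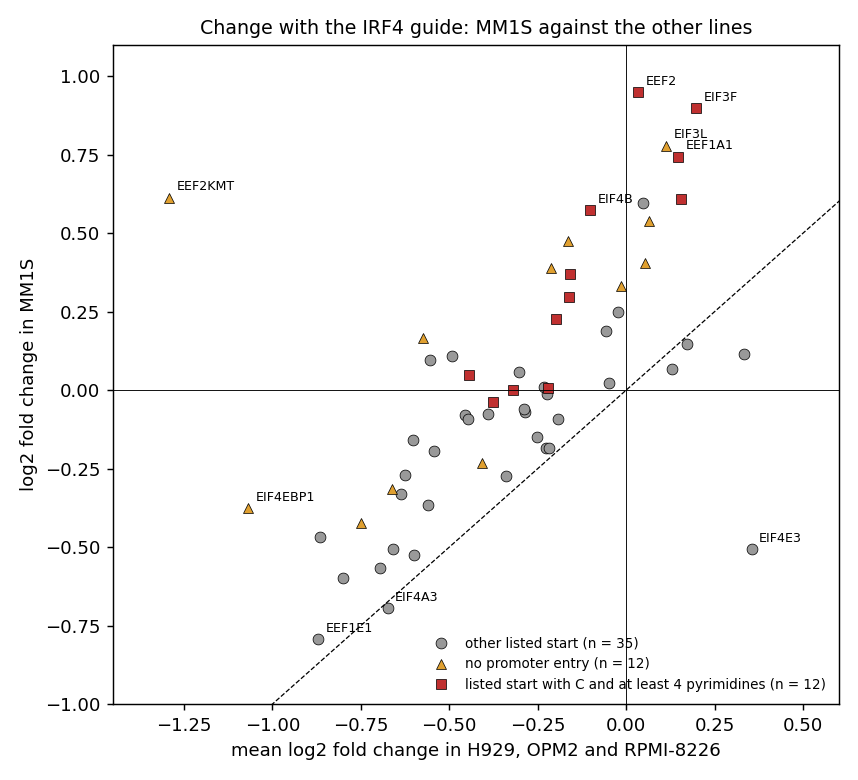
Log2 fold change in MM1S (vertical) against the mean log2 fold change in H929, OPM2 and RPMI-8226 (horizontal) for the 59 genes, coloured by pyrimidine start, other start or no promoter entry. The dashed line marks equal change, and 54 of 59 genes, including all 12 with a pyrimidine start, lie above it.

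Among enzymes and partners that share the name, 7 genes, 4 were lower and none higher on average (edgeR quasi-likelihood test). The 4 are 57.1%, beside 25.1% of all genes lower and 32.6% higher. EEF2KMT (Entrez 196483, chr16:5084284-5097795), which methylates eEF2, differed between lines with the smallest p of the 59. It was at 24.9, 26.8 and 22.3 CPM with EV and 8.21, 9.17 and 9.81 with the IRF4 guide in H929, and at 23.4 and 23.4 against 34.4, 38.7 and 34.5 in MM1S. The other lines were at 27.8, 32.1 and 29.3 against 8.68, 13.8 and 11.7 in OPM2 and 72.8, 66.1 and 76.8 against 31.99, 40.6 and 31.5 in RPMI-8226. No line overlapped, and MM1S alone was higher. EEF2KMT changed by -1.44 ± 0.14 in H929, -1.39 ± 0.13 in OPM2 and -1.05 ± 0.12 in RPMI-8226, against 0.61 ± 0.15 in MM1S (adjusted p = 0.0017), with an adjusted p of 2.74e-09 for the difference between lines.

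EEF1E1 (Entrez 9521, chr6:8073360-8102548), a scaffold of the multi-synthetase complex, was at 28.5, 25.1 and 20.8 CPM with EV and 9.81, 8.21 and 9.48 with the IRF4 guide in H929, and at 23.5 and 22.3 against 13.3, 13.7 and 12.6 in MM1S. It was at 18.9, 15.2 and 12.9 against 7.64, 10.7 and 9.30 in OPM2 and 25.8, 25.6 and 19.4 against 17.4, 21.6 and 14.7 in RPMI-8226. RPMI-8226 overlapped and the other lines did not. EEF1E1 fell 1.80-fold on average (-0.85 ± 0.08, adjusted p = 2.63e-10), with -1.42 in H929 and -0.42 in RPMI-8226. The RPMI-8226 call was lost without any single one of RPMI-8226 EV replicate 1, RPMI-8226 EV replicate 2, RPMI-8226 IRF4 replicate 1 and RPMI-8226 IRF4 replicate 3 (adjusted p from 0.0877 to 0.16).

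EEF1AKMT3 (Entrez 25895, chr12:57772614-57782541), which methylates eEF1A, was among the least abundant at 7.86, 7.38 and 7.27 CPM with EV and 2.32, 2.90 and 2.80 with the IRF4 guide in H929, and at 2.55 and 2.12 against 1.58, 1.72 and 2.22 in MM1S. It was at 12.9, 13.04 and 11.8 against 8.51, 8.69 and 8.55 in OPM2 and 10.99, 11.7 and 10.2 against 10.2, 10.8 and 8.01 in RPMI-8226. It was below EV without overlap in H929 and OPM2. EEF1AKMT3 fell by 0.67 ± 0.09 on average (adjusted p = 2.41e-07) and 2.86-fold in H929, and was not called in MM1S or RPMI-8226. EEF1AKMT2 fell by 0.23 ± 0.06 on average. EEF2K, the kinase that inhibits eEF2, read 0.05 ± 0.04 on average (not called), as did EEF1AKNMT at -0.03 ± 0.04 and EEF1AKMT1 at 0.07 ± 0.15.

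With EV alone the level differed between lines for 57 of the 59 genes (96.6%), where 93.1% of all genes tested did. EIF4A3 (adjusted p = 0.545) and EIF3J (adjusted p = 0.134) were the exceptions. The order was not that of the response. EEF2 was highest in H929 at 9487 ± 736 CPM (SD, n = 3), then MM1S at 3942 ± 342 (n = 2), RPMI-8226 at 3529 ± 136 and OPM2 at 3228 ± 204 (n = 3 each). RPMI-8226 and OPM2 overlapped, and MM1S lay just above RPMI-8226. EEF1A1 ran from 2712 ± 169.5 in H929 through 1504 ± 6.96 in OPM2 and 1420.1 ± 3.56 in RPMI-8226 to 1090.4 ± 65.7 in MM1S. Per length, EEF2 stood at a log2 RPKM level of 11.29 ± 0.00 in H929 with EV, EEF1G at 9.14 ± 0.07, EEF1A1 at 9.03 ± 0.10, EIF3E at 8.97 ± 0.04, EIF4G2 at 8.22 ± 0.12, EIF4E at 3.09 ± 0.17 and EEF1AKMT3 at 1.45 ± 0.10 (SD, n = 3). The same libraries had EEF2 at 8942, 9193 and 10325 CPM, so its SD of 0.00 on the deposited scale is not their spread in counts.

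Other genes of protein synthesis were followed in 7 lists of 77 genes, all tested. Their average counts stand beside 25.1% of all genes lower and 32.6% higher. Of 20 cytosolic tRNA synthetases and scaffolds 18 fell and 1 rose on average, with a median of -0.48 beside 0.11 over all genes. IARS fell by 0.72 ± 0.04, WARS by 0.65 ± 0.04 and EPRS by 0.51 ± 0.04, and QARS was the 1 that rose (0.32 ± 0.04). Of 8 termination, recycling and rescue genes 6 fell and 1, GSPT2, rose (0.33 ± 0.07). Those that fell included the release factor GSPT1 (-0.66 ± 0.04), the rescue GTPase HBS1L (-0.60 ± 0.04) and the recycling ATPase ABCE1 (-0.79 ± 0.05). The mitochondrial factors had 7 of 9 lower and none higher (edgeR), led by GFM1 (-0.47 ± 0.05), TSFM (-0.32 ± 0.04) and MRRF (-0.29 ± 0.04).

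Regulators of the factors were mixed. The enzymes that add hypusine to eIF5A or diphthamide to eEF2 had 5 of 8 lower, among them DPH2 (-0.49 ± 0.06), DPH6 (-0.47 ± 0.08) and DHPS (-0.26 ± 0.05). In MM1S 3 of these enzymes were higher (37.5%, beside 19.4% of all genes). Of 14 mTORC1 and MNK signalling genes 8 rose and 3 fell. SESN1, which restrains mTORC1, rose by 0.92 ± 0.06, TSC2, which does so through RHEB, by 0.42 ± 0.04, and MKNK2, a kinase of eIF4E, by 0.51 ± 0.06. The list of poly(A) and TOP mRNA binding proteins with related genes had 4 of 10 higher and 4 lower. PAIP2, PAIP2B, TPT1 and PDCD4 were higher, PABPC4, PAIP1, LARP1 and LARP4 lower, and PABPC1 and RACK1 not called. PDCD4, an inhibitor of eIF4A, rose by 1.41 ± 0.08 on average (adjusted p = 3.42e-12) and by 2.13 ± 0.16 in H929, PAIP2 rose by 0.44 ± 0.04 and LARP4 fell by 0.50 ± 0.04. Of 8 eIF2 alpha kinases, phosphatase subunits and partners 3 fell, PPP1R15B (-0.33 ± 0.03), GCN1 (-0.27 ± 0.04) and ATF4 (-0.50 ± 0.09), the last not called in MM1S (0.20 ± 0.20).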

How the data were processed

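Per the labels' protocols, RNeasy Plus Mini columns gave the RNA and a TruSeq RNA kit the libraries. The authors deposited whole-number counts per Entrez gene for 23 libraries and log2 RPKM values for 16220 genes. The submitters' processing notes name Subread, featureCounts, limma and GRCh38 (hg38), with strand use not stated in the sources used here. In RefSeq 27 of the 59 genes overlap another gene of the table, so reads could be shared.

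The analysis of the counts used edgeR 4.0.16 in R 4.3.3: filterByExpr by group, TMM factors (0.914 to 1.08), and 1 robust quasi-likelihood fit over 8 groups, with contrasts per line, their equal-weight average, each of MM1S and RPMI-8226 minus the mean of the other 3 lines, and F tests between lines. Benjamini-Hochberg adjustment ran over 16468 genes, and the SE is the change divided by the square root of F. The fit was tested on simulated data. Genes without a symbol (490) took 0.11 to 0.292% of counts. Levels are TMM-normalised CPM, and log2 RPKM values deposited by the authors served for levels between genes. Same-group libraries had Pearson r of at least 0.988 across genes.

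The members, lists, tests and sequence motifs were chosen with earlier results of these data known. Values in every library are given for the 8 largest called falls and 8 largest called rises on average, the 4 smallest p-values between lines and 5 paralog pairs, and up to 3 called genes per list, with EIF4E added after its values were seen.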

Additional observations from a re-analysis of the deposited data

Results flagged for a closer look

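The response to the IRF4 guide differed between lines for 44 of the 59 genes (74.6%, beside 48% of all genes tested) by the F test in the same edgeR fit. Among these, 8 were called in opposite directions in different lines, or 5 without MM1S EV replicate 2, where EIF3D, EIF3G and EIF3K lost their MM1S calls. Their adjusted p-values for the difference were 2.736e-09 for EEF2KMT, 1.36e-08 for EIF4E3, 5.082e-07 for EIF4B, 5.674e-07 for EIF3E, 4.979e-05 for EIF3G, 0.0001722 for EIF3D, 0.0002081 for EEF1B2 and 0.003869 for EIF3K. EEF2, at 6.177e-09, was higher in MM1S and OPM2 and not called in H929 or RPMI-8226. In 7 of the 8, all but EIF4E3, MM1S was the line called higher.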

How the results depend on the processing

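The alternatives were DESeq2, DESeq2 size factors in edgeR, library totals, limma on the deposited log2 RPKM, no low-count filter, a replicate block, each line fitted alone, each library left out, a looser count rule for members (62 genes, adding EEF1A2, EIF5A2 and EIF4EBP3) and, added after seeing the data, TMM factors computed without translation genes. The count of genes higher in H929 was 3 instead of 6 with each line fitted alone, where fewer libraries enter. The count of genes lower in MM1S than in the other lines was 2 instead of 1 with DESeq2 size factors, library totals, DESeq2, the deposited log2 RPKM and the replicate block shared by the lines. The cause was not tested. The EEF1AKMT1 average, not called in counts, read -0.36 (adjusted p = 0.02707) with limma on the deposited log2 RPKM, against 0.07. The other counts stayed within 1.5 times outside the left-out libraries.

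With each library left out in turn, the counts lower ranged from 38 to 41 in H929, 7 to 15 in MM1S, 27 to 33 in OPM2, 22 to 30 in RPMI-8226 and 36 to 37 on average. The counts higher ranged from 3 to 6, 12 to 16, 6 to 10, 1 to 3 and 10 to 13 in that order. MM1S minus the others gave 19 to 33 higher and 1 to 2 lower, RPMI-8226 minus the others 6 to 13 higher and 7 to 13 lower, and differences between lines 42 to 48 overall and 57 with EV. Genes lower in all 4 lines numbered 6 to 13 and genes called in opposite directions 5 to 8, both lowest without MM1S EV replicate 2. Single changes kept their call or stayed uncalled in 6613 refits, lost the call in 159 and gained it in 13, and no called change reversed. Signs of changes that stayed uncalled were not compared.

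Scaling moved the median of all genes by over 0.1 in H929, in OPM2 and on average, and there the members' median stayed below it. In MM1S on log2 RPKM the members' median (-0.01) was above that of all genes (-0.02). In H929 the medians of members and of all genes were -0.43 and -0.07 on log2 RPKM and -0.47 and -0.01 with the line fitted alone, against -0.40 and 0.10. On average they were -0.22 and -0.03 on log2 RPKM, against -0.23 and 0.11. In OPM2 they were -0.10 and 0.14 with library totals and -0.18 and -0.08 on log2 RPKM, against -0.21 and 0.03. Of the genes called, the share higher was 46.2% on log2 RPKM against 56.5% on average, 45.6% against 55.7% in H929, and 66.7% with library totals against 53.5% in OPM2. The MM1S median of members was between -0.05 and 0.00 under these settings, so its sign is not given.

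Replicate numbers shared by guides were checked in 11 pairs of same-numbered EV and IRF4 libraries within lines. The deviations of same-numbered libraries correlated at 0.0256 to 0.183, above 0.1 in 6, and 11 of 11 IRF4 libraries but 10 of 11 EV libraries correlated best with their own number, a hint from the data. MM1S EV replicate 2 correlated best with MM1S IRF4 replicate 1 (0.0403 against 0.0256). The numbers were not treated as pairs. Under a replicate block common to the lines 38 members were lower and 12 higher on average, and 49 differed between lines; with a block within each line these were 39, 12 and 49.

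Members with low counts, EEF1AKMT1 and EEF1AKMT3, have standard errors of up to 0.36, so small changes in them were not detectable at this depth.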
